A study of Macaca mulatta with 102 samples.

Results

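B2M (beta-2-microglobulin) was followed through the mammary gland and milk of lactating rhesus macaques as 1 transcript, ENSMMUT00000005322, of the 42701 transcripts in the deposited table. The row lies on chromosome 7 from 23126191 to 23130703 of the rheMac2 genome build. It was selected on its measured level, as an abundant transcript whose mean differed between milk fat, milk cells and mammary tissue, so those differences are described below without a test. The table gives no gene symbols, and the name B2M does not rest on a transcript annotation. It rests on a match of the row's mean levels with those the study tabulated for the gene, and of its chromosome with RefSeq. No other row overlapped this row. The 3 nearest rows on either side began or ended 14422 to 81126 bases away and had mean levels of 0 to 4.06 FPKM (fragments per kilobase of transcript, scaled to the number mapped), against 2569 for B2M. RefSeq (assembly T2T-MMU8v2.0) also places B2M on chromosome 7, between the coding genes PATL2 and TRIM69.

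B2M is the invariant light chain of MHC class I molecules. It pairs with the polymorphic heavy chain, and without it most class I molecules do not reach the cell surface to present peptides to CD8+ T cells. It is also the light chain of the neonatal Fc receptor, which carries IgG across epithelia, and nearly all nucleated cells make it. In milk, RNA can come from shed epithelial cells, from leukocytes, and from crescents of epithelial cytoplasm that are trapped on fat globules as these are secreted.

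The 34 samples came from 6 multiparous females, M1 to M6, that were nursing male infants and received oxytocin for milk collection. After the biopsy 1 of them, which the labels do not name, had mastitis and was treated with antibiotics. They comprised 6 mammary core biopsies (3 of day 30 of lactation, from M3, M4 and M6, and 3 of day 90, from M1, M2 and M5), 12 pelleted milk cell samples (6 of each day) and 10 milk fat layers (4 of day 30, from M1, M2, M3 and M6, and 6 of day 90). A further type, of 6 samples of day 90, carries the labels FatS10, FatsS10 (M4) or Skim10m (M3). They are called S10 milk here, and by number and day they were taken to be the cell-free milk of the study, which the labels do not say. Each sample was sequenced in 3 technical runs, whose mean was used. Differences between samples were computed as log2(scaled FPKM + 1), where scaling divided each sample by the median of its ratios to the average sample, so that the typical transcript had the same level in all.

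The tissue and cell markers fixed for checking the sample types could not be matched to rows without symbols, so the labelled types were not checked against them. FPKM give no read counts. The spacing of low values put the depth of the samples between 0.742 and 1.64 times their median, with type medians of 0.886 in biopsies, 1 in milk cells, 1.04 in S10 milk and 1.05 in milk fat. For the B2M row the technical runs of a sample varied with a coefficient of variation of 0.491% to 4.05%, below the 7.87% to 71.7% between the animals of a group. In bulk samples, fewer cells of a type and less RNA per cell cannot be told apart. The study reported lower RNA integrity in macaque milk fat than in milk cells or mammary tissue. It left some day 30 milk RNA unsequenced because its integrity was judged too low. The part of RNA integrity in the B2M differences was not tested.

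B2M was among the most abundant transcripts of every sample and was lowest in milk fat. In the biopsies of day 30 it was 3008 FPKM in M3, 3274 in M4 and 2320 in M6, and in those of day 90 it was 3084 in M1, 3397 in M2 and 2700 in M5. The mean was 2964 ± 396 FPKM (SD, n = 6), a 1.46-fold range that widened to 2.12-fold after scaling, and B2M ranked between 10 and 15 among all transcripts there.

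Milk cells varied most. On day 30 the level was 2635 FPKM in M1, 10805 in M2, 3541 in M3, 3403 in M4, 4021 in M5 and 2231 in M6. On day 90 it was 2188 in M1, 4849 in M2, 2810 in M3, 2458 in M4, 2529 in M5 and 2288 in M6. As deposited, M2 was the highest animal on both days, and the other 10 samples covered a 1.84-fold range. After scaling M2 was still the highest on day 30 (7702), but on day 90 M3 (3941) stood above M2 (3460). The mean over animals was 3647 ± 2088 FPKM (SD, n = 6), and without M2 the 10 samples averaged 2810. B2M ranked between 10 and 24 in milk cells.

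In milk fat, levels on day 30 were 1267 FPKM in M1, 1214 in M2, 1577 in M3 and 1702 in M6. On day 90 they were 1479 in M1, 1210 in M2, 2003 in M3, 1166 in M4, 1716 in M5 and 1554 in M6. The mean over animals was 1481 ± 267 FPKM (SD, n = 6), and the rank fell between 23 and 63. M2, the animal with the most B2M in its milk cells, had the lowest milk fat level of day 30 and the second lowest of day 90.

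S10 milk had the smallest spread as deposited and after scaling. Its samples held 2043 FPKM in M1, 1668 in M2, 1883 in M3, 1679 in M4, 1882 in M5 and 1777 in M6, a mean of 1822 ± 143 (SD, n = 6) with ranks of 21 to 33. As deposited, every milk cell sample and every biopsy lay above every milk fat and S10 milk sample.

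**Figure D1:**
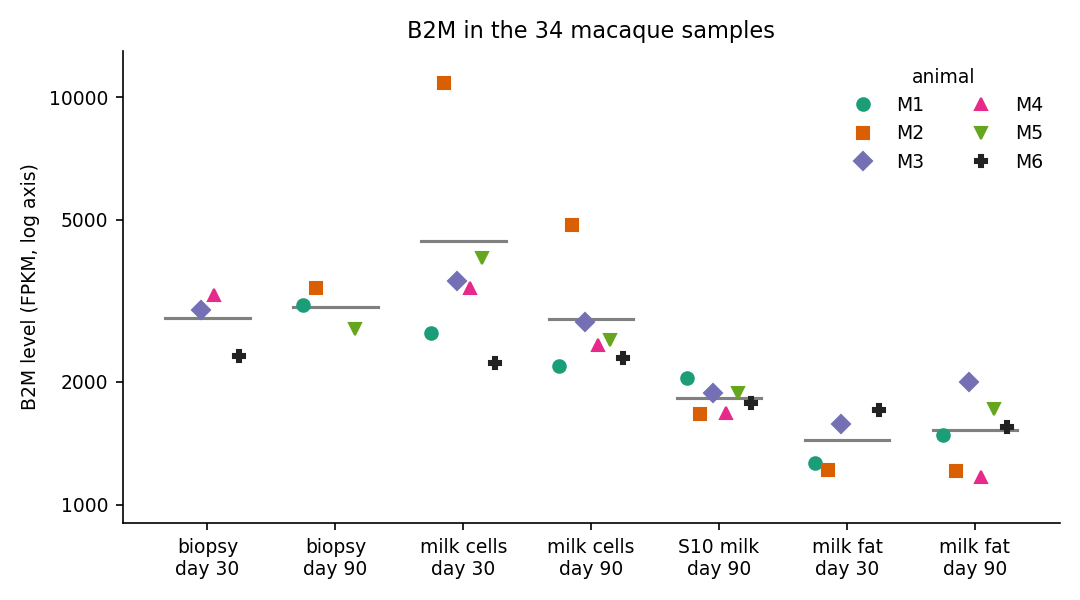
B2M level in FPKM (log axis) in each of the 34 samples, by sample type and day of lactation; each symbol is 1 animal and the grey line is the group mean. All milk fat and S10 milk samples (1166 to 2043 FPKM) lie below all biopsies and milk cell samples (2188 to 10805), and in these unscaled values the milk cells of M2 stand above the other animals on both days.

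In order of the animal means as deposited, milk cells came first, followed by biopsies, S10 milk and milk fat. Neighbouring types in this order differed unequally against their spread. Milk cells and biopsies overlapped widely, with 7 of 12 milk cell samples below the highest biopsy. S10 milk and milk fat overlapped too, with 5 of 6 S10 milk samples below the highest milk fat sample. Biopsies and S10 milk did not overlap, the lowest biopsy being at 2320 FPKM and the highest S10 milk sample at 2043.

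The order of the upper pair turned with the scale. After scaling, biopsies (3546 ± 997, SD, n = 6) stood above milk cells (3340 ± 1297), and S10 milk (1749 ± 254) and milk fat (1509 ± 375) stayed below both. The types were then no longer apart, since the day 90 milk fat of M3 (2386) lay above the biopsy of M6 (2102) and above milk cell samples of M1 (2075), M4 (2258) and M6 (2231 and 2316). The highest 20 transcripts took a large and varying share, leaving 16.8% to 40.4% of the summed FPKM for all others. As a percentage of what those 20 left, B2M made up 1.40% ± 0.309 in biopsies, 1.26% ± 0.476 in milk cells, 0.643% ± 0.0777 in S10 milk and 0.444% ± 0.120 in milk fat (SD, n = 6 animals each). On this scale, too, milk cells did not overlap with S10 milk, and 3 of 6 S10 milk samples lay below the highest milk fat sample.

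**Figure D2:**
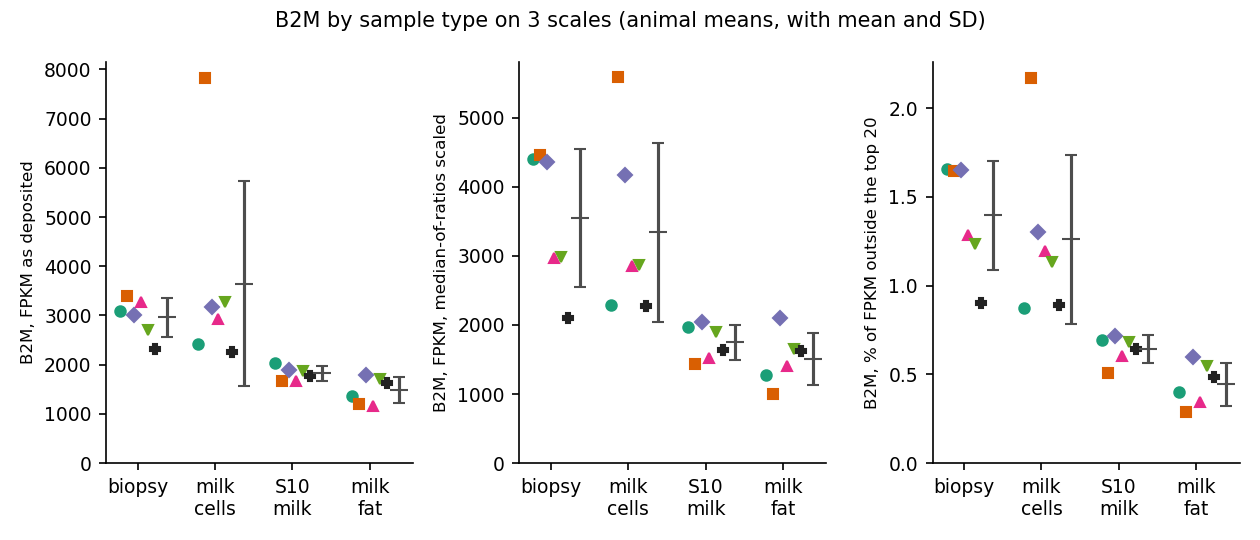
B2M by sample type on 3 linear scales: FPKM as deposited, FPKM after median-of-ratios scaling, and percent of the FPKM outside the top 20 transcripts; symbols are animal means over days and bars give the mean and SD over 6 animals. Biopsies and milk cells change places between the first panel and the other 2, whereas the means of S10 milk and milk fat stay below theirs in each.

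Within animals, B2M was lower in milk fat than in milk cells in 6 of 6 animals, by a mean of -1.08 ± 0.66 on the log2 scale (SD, n = 6), which corresponds to 2.12-fold. M2 had the widest gap at -2.38. The others lay at -0.85 in M1, -1.003 in M3, -0.99 in M4, -0.79 in M5 and -0.49 in M6. The gap was present on each day, at -1.51 ± 1.16 on day 30 (SD, n = 4) and -0.78 ± 0.42 on day 90 (SD, n = 6). In FPKM as deposited, the milk cells of M2 held 8.90 times the B2M of its milk fat on day 30 and 4.01 times on day 90, while the ratio in the other animals was 1.31 to 2.25 on day 30 and 1.40 to 2.11 on day 90.

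Milk fat was likewise lower than the biopsy in 6 of 6 animals, by a mean of -1.22 ± 0.65 (SD, n = 6). The largest gaps were those of M2 (-2.17) and M1 (-1.80), M3 and M4 lay near each other at -1.07 and -1.08, and M5 (-0.85) and M6 (-0.37) had the smallest. Only 5 animals had milk fat of the day of their biopsy, and there the mean was -1.20 ± 0.64 (SD, n = 5). The titles of the samples open with 2 (M1 and M2), 3 (M3 and M4) or 4 (M5 and M6), except that the biopsy of M5 has 3. With each animal placed by its milk samples, the mean difference from the biopsy was -1.98, -1.07 and -0.61, lower in milk fat in each. The last of these averages M6 and M5, whose biopsy lies in another set. Against milk cells the mean difference of milk fat was -1.62, -0.996 and -0.64.

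Milk cells and biopsies did not differ beyond their spread. The mean difference was -0.14 ± 0.41 (SD, n = 6), higher in the milk cells of M2 (0.21) and M6 (0.11) and lower in the other 4 animals, of which M1 was farthest at -0.95. Without M1 the mean was 0.020, and in FPKM as deposited it was 0.14. Taken from the same day, milk cells were higher in 3 animals and lower in 3, with a mean of -0.23 ± 0.47.

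**Figure D3:**
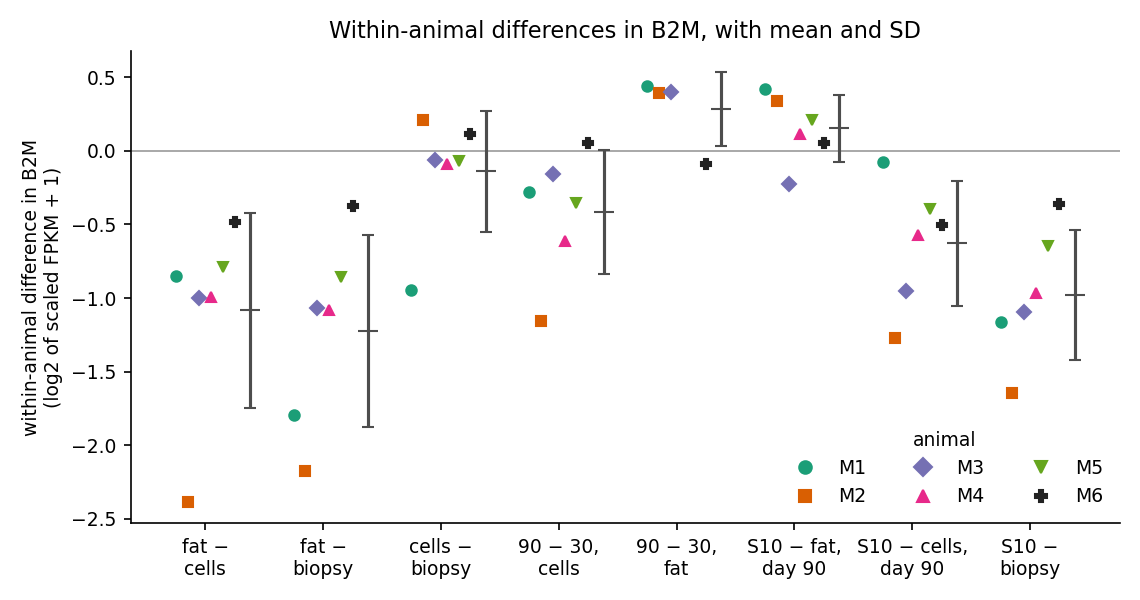
Within-animal differences in B2M, in log2(scaled FPKM + 1), for 8 comparisons; each symbol is 1 animal and the bar beside it gives the mean and SD. Milk fat lies below milk cells and below the biopsy in 6 of 6 animals, S10 milk lies below milk cells and below the biopsy in 6 of 6, and the day differences fall on both sides of 0.

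The next comparisons ask whether B2M changed between days 30 and 90 of lactation. They and those of S10 milk were tested with limma across all transcripts with a mean of at least 1 FPKM, two-sided, with Benjamini-Hochberg adjustment and a call at an adjusted p under 0.05. The milk cell, milk fat and biopsy values had entered the choice of the transcript, averaged over days. In milk cells the level was lower on day 90 in 5 of 6 animals: it was 0.449 times the day 30 FPKM in M2, 0.629 times in M5, 0.722 times in M4, 0.793 times in M3 and 0.830 times in M1, and 1.03 times in M6. The log2 difference was -0.42 (standard error 0.29, limma adjusted p = 0.359) and did not pass the threshold, in a comparison in which 5.10% of 13815 transcripts were called. With the animals as a replicate block 3454 transcripts were called in place of 705, and B2M still did not pass (limma adjusted p = 0.0795). Without the day 30 milk cell sample of M2 the difference was -0.20, and limma called 0 transcripts (3937 at an unadjusted p under 0.05).

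In milk fat the number of animals that rose depended on the scale, but the sign of the mean difference did not. Of the 4 animals with both days, 3 were higher on day 90 after scaling and 2 in FPKM as deposited. All 4 were higher when samples were scaled to the FPKM outside the top transcripts. The mean was positive on each of these scales. After median-of-ratios scaling, the log2 difference within animals was 0.44 in M1, 0.39 in M2, 0.40 in M3 and -0.09 in M6. Over all 10 samples it was 0.26 (standard error 0.25, limma adjusted p = 0.953). No transcript was called there (0% of 12609), and 661 had an unadjusted p under 0.05. FPKM as deposited gave 0.07, and the typical transcript then moved by -0.14.

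The 3 biopsies of day 90 and the 3 of day 30 came from different animals, so animal and day cannot be told apart. Their log2 difference was 0.37 (standard error 0.34, limma adjusted p = 0.960), with 0% of 13762 transcripts called and 441 at an unadjusted p under 0.05. Only the titles opening with 3 held biopsies of both days, and there the direction was not the same: the day 90 biopsy of M5 had a scaled level of 2976 FPKM, against 4356 in M3 and 2974 in M4 on day 30. Whether the day difference itself differed between milk fat and milk cells was tested as an interaction, chosen after the data had been seen. It was 0.68 (standard error 0.40, limma adjusted p = 0.434) with 0% of 13521 transcripts called (2107 at an unadjusted p under 0.05), so the opposite signs were not shown to differ. With the replicate block 1307 transcripts were called in this test, and the adjusted p of B2M was 0.208.

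S10 milk was compared with each other type to place it beside the fractions. Its own values had no part in the choice of the transcript, but those of the other types did, so the tests are not independent of that choice and their p-values are given as a description. Against milk fat of the same day, B2M in S10 milk was higher in 5 of 6 animals, with log2 differences of 0.42 in M1, 0.34 in M2, 0.21 in M5, 0.11 in M4 and 0.06 in M6, and -0.23 in M3. The difference was 0.15 (standard error 0.17, limma adjusted p = 0.521), within the spread between animals, although 30.5% of 12730 transcripts were called between these types. With the replicate block 5994 transcripts were called in place of 3880, and B2M again did not pass (limma adjusted p = 0.281). It was 0.50 when samples were scaled to the FPKM outside the top 20 transcripts, where it passed (limma adjusted p = 0.0466) and S10 milk was higher in 6 of 6 animals. That scaling moved the median of all transcripts to 0.25, so B2M then lay 0.25 above the typical transcript.

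Against milk cells of the same day, B2M in S10 milk was lower in 6 of 6 animals. The log2 differences were -1.27 in M2, -0.95 in M3, -0.57 in M4, -0.50 in M6, -0.40 in M5 and -0.08 in M1. Their mean was -0.63. The limma fit without an animal term gave a standard error of 0.18, an unadjusted p of 0.00436 and an adjusted p of 0.107. B2M did not pass in this comparison, in which 1.21% of 13371 transcripts were called. A two-sided exact permutation test over the 6 animals gave p = 0.03125, the smallest it can give, and 0.0938 after adjustment over the 6 tests of this kind. Scaling to the FPKM outside the top 20 transcripts gave -0.80 and an adjusted p of 0.0198. With the replicate block the adjusted limma p was 0.0555, and 969 transcripts were called in place of 162.

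Against the biopsies, B2M in S10 milk was lower in 6 of 6 animals. The log2 differences ran from -1.64 in M2 and -1.16 in M1 through -1.10 in M3, -0.97 in M4 and -0.64 in M5 to -0.36 in M6. Their mean of -0.98 corresponds to 1.97-fold. The limma fit without an animal term gave a standard error of 0.20 and an adjusted p of 0.00145. In this comparison 48.0% of 13700 transcripts were called. With the replicate block the standard error was 0.17 and the limma adjusted p 0.00267. The exact permutation test over animals gave p = 0.03125 here too, or 0.0938 after adjustment over the 6 tests. The biopsies of M3, M4 and M6 were of day 30 and all S10 milk of day 90, so for these 3 animals type and day differ together. With animals placed by their milk samples, the means of the sets opening with 2, 3 and 4 were -1.40, -1.03 and -0.50. The last of these averages M6 and M5, whose biopsy lies in another set. FPKM as deposited gave -0.69 with the median of all transcripts at 0.27.

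To show how B2M stood among abundant transcripts, it was set beside the 40 others with a mean of at least 1000 FPKM over the 34 samples. The limit was chosen after the data had been seen. That mean includes milk fat, so transcripts high only there can enter the set and raise its medians. ENSMMUT00000025856, for example, differed by 5.81 from biopsy to milk fat. B2M was itself chosen for its differing means, so its place in the set is a description. Transcripts with a mean of at least 1 FPKM in the sample types compared are called measured here. Of these, 3.82% of 13521 lay below B2M from milk cells to milk fat and 9.68% of 13413 from biopsy to milk fat. From milk cells to milk fat the median of the 41 was 0.63 on the log2 scale, against 0.05 over the 13521 transcripts measured, and only 1 of the 40 had a lower value than B2M. From biopsy to milk fat 2 of the 40 were lower, and the median of the 41 was 0.77. From milk cells to S10 milk 1 was lower (median 0.28), and from biopsy to S10 milk 2 were lower (median 0.56). From milk fat to S10 milk, in contrast, 34 of the 40 lay below B2M, and the median was -0.62. Between the days, 17 of the 40 lay below B2M in milk cells and 23 in milk fat. Among the transcripts measured, 14.8% of 13815 lay below it in milk cells and 89.3% of 12609 in milk fat.

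**Figure D4:**
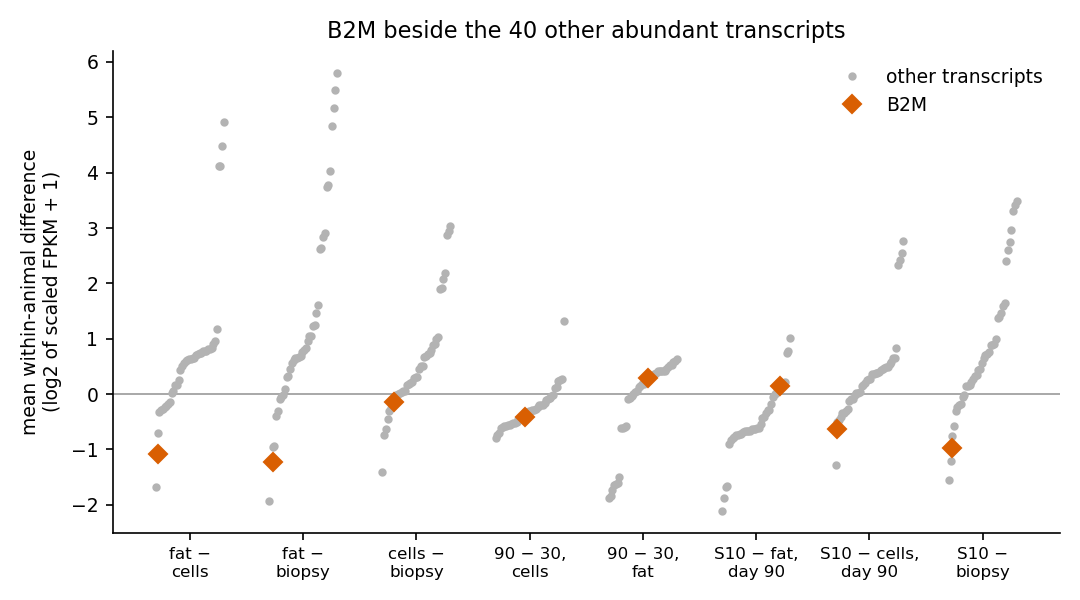
Mean within-animal difference, in log2(scaled FPKM + 1), of B2M (diamond) and of the 40 other transcripts with a mean of at least 1000 FPKM (grey points, sorted within each comparison). The mean runs over all samples, so transcripts high only in milk fat can be among the grey points. B2M lies near the low end in the comparisons of milk fat or S10 milk with milk cells or biopsy. Between days 30 and 90 it lies near the middle of these transcripts. Of the transcripts with a mean of at least 1 FPKM in the samples compared, 14.8% (milk cells) and 89.3% (milk fat) then lay below it.

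The spread of B2M between animals was small in some groups beside these transcripts and not in others. In S10 milk its SD on the log2 scale was 0.21, against a median of 0.38 over the 41 transcripts with a group mean of at least 1000 FPKM, of which 7 had a smaller SD. In milk cells of day 90 it was 0.37, with 4 of 31 smaller (median 0.47). In milk cells of day 30 it was 0.64, with 27 of 40 smaller (median 0.54). In biopsies it was 0.53 on day 30, with 12 of 24 smaller (median 0.51), and 0.33 on day 90, with 5 of 22 smaller (median 0.52). In milk fat it was 0.51 on day 30 and 0.35 on day 90, where 37 of 53 and 22 of 59 transcripts had a smaller SD.

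The transcripts whose levels followed B2M most closely were sought among the 4033 others with a mean of at least 10 FPKM. Over the 34 samples, which share animals and sample types, the highest Pearson correlations of log2(scaled FPKM + 1) were 0.86 for ENSMMUT00000032825 and 0.83 for ENSMMUT00000025082. The first had means of 22.8 FPKM in biopsies, 27.1 in milk cells, 19.9 in S10 milk and 16.6 in milk fat, the order that B2M had as deposited. Its level in the milk cells of M2 on day 30 was 67.9 FPKM, against a median of 25.9 in the other 5 animals. After the mean of each type and day was removed, the closest were ENSMMUT00000025645 (0.76) and ENSMMUT00000012857 (0.76). The second of these reached 150 FPKM in that milk cell sample, against a median of 33.4 in the other 5 animals. That sample, where B2M was highest, took part in the choice of these transcripts, so their high levels in it are no separate support. The levels are also unscaled, and its scaling factor of 1.40 was the highest in its group. Without that sample the 4 correlations were 0.82, 0.83, 0.70 and 0.67. None of the 4 was then the closest to B2M: in the same order they ranked 4, 2, 4 and 11 by their measure.

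That milk cell sample also differed from its group across the whole table. Its mean rank correlation with the other 5 milk cell samples of day 30 was 0.913, whereas those 5 had 0.922 to 0.925, and the top 20 transcripts left 40.4% of its summed FPKM to the others, against 23.4% to 31.2% in those 5. B2M made up 2.79% of that remainder in M2 and 0.813% to 1.31% in the other animals, so it was the highest on this scale as well. The part of these properties in the B2M value was not tested.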

How the data were processed

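Per the labels and the study's methods, poly(A) RNA was sequenced as single reads, trimmed with Scythe and Sickle, checked with FastQC and aligned with TopHat on a Bowtie index of rheMac2, and the authors deposited FPKM per Ensembl transcript from Cufflinks. Versions were not given in the sources used here. The FPKM were averaged over 3 technical runs, leaving 34 samples; 6 further columns matched no sample and were not used. Samples were scaled by the median of ratios over 21792 transcripts above 0 in all of them. Tests used limma 3.58.1 in R 4.3.3 on log2(scaled FPKM + 1), without an animal term, for transcripts with a mean of at least 1 FPKM in the samples compared, and were tested on simulated data first. Deviations of the same animal's samples from their group means correlated at 0.39 to 0.46 on average (lowest pair 0.22), so a fit with the animal from the labels as the replicate block was the alternative. The transcript and all lists and limits were chosen with earlier results of these data known. Of the transcript identifiers, 0 matched the gene tables at hand, so the planned lists of class I partners, peptide loading genes and cell markers were not analysed here. For likeness, 5 transcripts per measure were kept and the first 2 named. No sequence is shown.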

Additional observations from a re-analysis of the deposited data

Results flagged for a closer look

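Dixon's ratio was computed for B2M in 17 groups of 4 to 6 values, where chance flags about 1 group in 20, and 6 were flagged. They share animals, so they are not independent. The milk cells of M2 stood apart in FPKM on day 30 (10805, a gap of 0.791 of the group's range) and on day 90 (4849, 0.766). The same animal had the lowest difference of milk fat against milk cells, at -2.38 over both days and -1.61 on day 90. M1 had the lowest difference of milk cells against biopsy (-0.95), and M6 the lowest day difference in milk fat (-0.089), the single value below 0 among 4 animals.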

How the results depend on the processing

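Of 214 recomputed values, 209 kept their direction and their side of the threshold (or, without a test, moved by less than 1 SD). The exact permutation test over animals entered this count with its unadjusted p. After adjustment its p for S10 milk against biopsy was 0.0938, which is not under 0.05, unlike the limma adjusted p of 0.00145. The difference of milk cells against biopsy turned to 0.14 in FPKM as deposited and ranged from -0.24 to 0.020 when single animals, or the day 30 milk cell sample of M2 (-0.24), were left out, 0.020 being without M1. Scaled to the FPKM outside the top 20 transcripts, S10 milk passed the threshold against milk fat (0.50) and against milk cells (-0.80); the exact permutation test over animals put the unadjusted p of the second (-0.63) under 0.05 as well. Over the limma alternatives the adjusted p of S10 milk against biopsy stayed between 0.000164 and 0.00979, against milk cells between 0.0198 and 0.343, and against milk fat between 0.0466 and 0.752. These ranges are a description too, since the values of the other types had entered the choice of the transcript. Between days, B2M had adjusted p from 0.0795 up to 0.685 for the milk cells, and no lower than 0.443 for milk fat and 0.513 for biopsies. The replicate block changed no call for B2M: its log2 differences were -0.42 between days in milk cells, 0.28 between days in milk fat and 0.15, -0.63 and -0.98 for S10 milk against milk fat, milk cells and biopsy. Leaving out the S10 milk sample labelled Skim10m gave 0.10, -0.68 and -1.03 for the last 3. Sums over overlapping rows equalled B2M alone, since no other row overlapped it, so these values among the 214 were fixed in advance. Leaving out the low filter, fitting all samples at once and the exact test could change the p but not the log2 difference. With 3 biopsies a day the exact test cannot go below 0.1, and with 4 milk fat pairs not below 0.125. Over all transcripts, the number called between days in milk cells was 705 and ran from 0 (in FPKM as deposited, without the low filter, without M1, M5 or M6, and without the single day 30 milk cell sample of M2) and 1 (without M2) to 2897 without M3 and 3454 with the block. For S10 milk against milk cells it was 162 and ran from 25 without M5 to 969 with the block. Against milk fat it was 3880, from 2459 without M2 to 5994 with the block. Against biopsy it was 6581 of 13700 tested, and with the low filter it ran from 5457 without M1 to 7240 with the block. Without the low filter more transcripts were tested, and 10470 of 33676 were called. The day test in biopsies called 0, and 78 when all samples shared one fit; the interaction called 0, 527 without M3 and 1307 with the block.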
